A study of Mus musculus with 2 samples.

Results

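The miR-17-92 cluster is a group of 6 microRNA (miRNA) genes, Mir17, Mir18, Mir19a, Mir20a, Mir19b-1 and Mir92-1, that lie side by side on mouse chromosome 14 and are cut from a single primary transcript. They were taken by name from the gene annotation and make up 6 of the 1973 miRNA genes in the count tables. The tables come from small RNA sequencing of the heart of mouse embryos (strain B6NCrl, embryonic day 14.5), with no treatment and no genetic change named in the labels. There is 1 group of 2 libraries, biological replicate 1 from 15 July 2014 and biological replicate 2 from 17 July 2014. The labels speak of a single heart per library, yet the sex entry is a pool of males and females and both libraries carry the same donor entry, so it is not settled whether separate animals were sampled. With 1 group nothing can be tested between groups, and the spread between the 2 libraries may be technical.

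Replicate 1 held 8150499 reads, of which 4327424 fell on miRNA genes in the strand used, and replicate 2 held 7269505 and 3839984. Levels are given as CPM, counts scaled to a total of 1000000 over these assigned reads, with mean ± SD over the 2 libraries. The heart muscle miRNA Mir208b, which marks this tissue, reached 66314 CPM in replicate 1 and 66822 in replicate 2, Mir499 reached 2896 and 3149, and Mir208a 6542 and 9382. Markers of other cell types also differed between the libraries. The red blood cell miRNA Mir451a had 1090 and 415 CPM, its neighbour Mir144 had 94.3 and 73.7, and the epithelial miRNAs Mir205 and Mir200c had 11.8 and 93.8, and 35.4 and 119. Their part in the levels below was not tested. In whole tissue, fewer cells that make a miRNA and less of it per cell cannot be told apart.

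A miRNA gene is transcribed as part of a longer RNA, folded into a hairpin and cut to a short mature strand, which guides silencing complexes to messenger RNAs. Target choice rests mainly on the seed, bases 2 to 8 of the mature strand, so miRNAs with the same seed are grouped as a family. The cluster is known as a target of MYC and E2F factors and as a promoter of cell proliferation and survival, and its loss in mice causes defects of heart and lung development. In heart muscle cells it is known for its link to proliferation, with the miR-19 strands assigned a leading part.

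The cluster holds 4 seed families. For miR-17, miR-18a and miR-20a the strand from the 5′ arm of the hairpin is usually the main product, and for miR-19 and miR-92a the strand from the 3′ arm. These strands are shown to make the families visible. All 6 genes matched the RefSeq miRNA table (GRCm38.p6, the assembly also called mm10). Sequences run 5′ to 3′, and capitals mark the seed.
miR-17-5p (Mir17): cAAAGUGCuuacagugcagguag
miR-20a-5p (Mir20a): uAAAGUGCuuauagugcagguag
miR-18a-5p (Mir18): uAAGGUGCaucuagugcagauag
miR-19a-3p (Mir19a): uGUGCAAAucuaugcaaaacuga
miR-19b-3p (Mir19b-1): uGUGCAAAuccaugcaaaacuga
miR-92a-3p (Mir92-1): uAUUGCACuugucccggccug
Counting positions from 1 at the 5′ end, miR-17-5p and miR-20a-5p differ at 2 of 23 bases (C1U and C12U), both outside the seed. miR-19a-3p and miR-19b-3p differ at 1 of 23 bases (U11C). miR-17-5p and miR-18a-5p differ at 6 of 23, of which A4G falls within the seed. The share of G and C was 34.8% in miR-19a-3p, 39.1% in miR-19b-3p and in miR-20a-5p, 43.5% in miR-18a-5p, 47.8% in miR-17-5p and 57.1% in miR-92a-3p.

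The genes follow each other on the plus strand of chromosome 14 within 836 bases. All 6 hairpins lie in exon 2 of the 2 exons annotated for the long noncoding RNA gene Mir17hg (chr14:115042879-115046727), the host transcript, and that exon spans chr14:115043271-115046727. Mir17 (ENSMUSG00000065508.1) is at chr14:115043671-115043754, Mir18 (ENSMUSG00000065403.1) at chr14:115043851-115043946 and Mir19a (ENSMUSG00000065416.1) at chr14:115044000-115044081. Mir20a (ENSMUSG00000065442.1) is at chr14:115044157-115044263, Mir19b-1 (ENSMUSG00000076256.1) at chr14:115044305-115044391 and Mir92-1 (ENSMUSG00000076062.1) at chr14:115044427-115044506. Between 35 and 96 bases separate one hairpin from the next. No member had a read on the opposite strand in either library.

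Together the 6 genes held 101812 counts in replicate 1 and 84815 in replicate 2, which is 2.28% ± 0.102 of all counts on miRNA genes, or 22807 ± 1018 CPM. In reads counted, the members were far from equal. Whether the libraries captured each sequence equally well was not tested, so ratios between genes are ratios of reads. Mir17, Mir20a, Mir18 and Mir92-1 gave 99.88% ± 0.00545 of the cluster's counts, and the miR-19 genes Mir19a and Mir19b-1 gave 0.125% ± 0.00545. The main strands of Mir92-1 and Mir19b-1 have identical copies elsewhere, as described below, so the cluster's sum and all shares of it are uncertain. The SD covers the spread between the 2 libraries and not this uncertainty. All 6 had at least 10 counts in each library, as did 17.1% of all genes in the tables (337 of 1973).

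Mir17, the gene that names the cluster, had 60882 counts in replicate 1 and 49153 in replicate 2, or 14069 and 12800 CPM (13435 ± 897). It was the 19th most abundant miRNA gene in both libraries, in counts that leave out reads mapping to several places. Mir20a, which carries the same seed, had 23631 and 19670 counts, or 5461 and 5122 CPM (5292 ± 239), and ranked 24th in both. By these counts the 2 genes of the miR-17 seed lay at the top of the cluster in each library, and their ranges did not overlap. The level of Mir92-1 is uncertain, as described below, and so is its place relative to these 2 genes. Mir17 exceeded Mir20a 2.58-fold in replicate 1 and 2.50-fold in replicate 2. Their share of the cluster's counts was 82.1% ± 1.32.

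Mir18, the precursor of miR-18a, had 9447 and 9637 counts, or 2183 and 2510 CPM (2346 ± 231). Mir92-1, the last hairpin of the cluster, had 7729 and 6246 counts, or 1786 and 1627 CPM (1706 ± 113). Mir18 lay above Mir92-1 in both libraries without overlap, by 1.22-fold in replicate 1 and 1.54-fold in replicate 2. The level of Mir92-1, and so its place among the members, is uncertain because its main strand has an identical copy elsewhere, as described below. Mir18 held 9.28% of the cluster's counts in replicate 1 and 11.4% in replicate 2, while Mir92-1 held 7.59% and 7.36%.

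The miR-19 genes were near the lower end of what these libraries resolve. Mir19a had 76 and 81 counts, or 17.6 and 21.1 CPM (19.3 ± 2.50), with exact 95% Poisson intervals of 13.8 to 22.0 and 16.8 to 26.2 CPM. Mir19b-1 had 47 and 28 counts, or 10.9 and 7.29 CPM (9.08 ± 2.52), with intervals of 7.98 to 14.4 and 4.85 to 10.5 CPM. These intervals cover counting error only. Mir19a lay above Mir19b-1 in both libraries, 1.62-fold in replicate 1 and 2.89-fold in replicate 2, but in replicate 1 their counting intervals overlapped. Both stood above the level of 3 counts, which was 0.693 CPM in replicate 1 and 0.781 in replicate 2. They ranked 248th and 247th (Mir19a) and 271st and 289th (Mir19b-1).

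**Figure D1:**
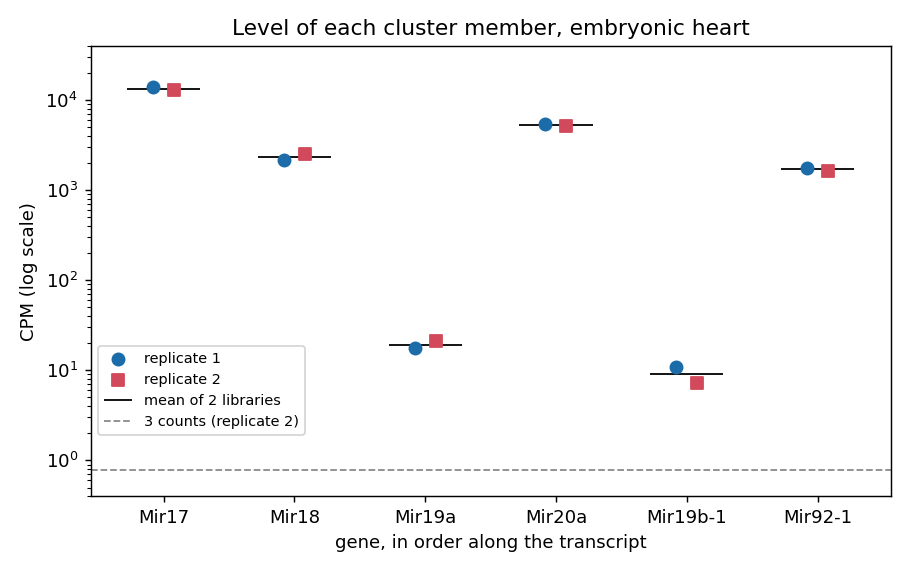
CPM of each of the 6 genes (log scale) in replicate 1 (circles) and replicate 2 (squares), with the mean as a bar and the level of 3 counts in replicate 2 as a dashed line. The 4 abundant genes lie between 1627 and 14069 CPM and the miR-19 genes between 7.29 and 21.1.

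From highest to lowest the order of counts was Mir17, Mir20a, Mir18, Mir92-1, Mir19a and Mir19b-1 in both libraries. No pair of neighbours in that order overlapped over the libraries. The places of Mir92-1 and Mir19b-1 are uncertain, because their main strands have identical copies elsewhere. The widest step lay between Mir92-1 and Mir19a, at 102-fold in replicate 1 and 77.1-fold in replicate 2. On the log2(CPM + 1) scale the distance from Mir17 to Mir19b-1 was 10.21 and 10.59. The order did not follow the place in the transcript, since each miR-19 hairpin sits between abundant neighbours. Mir19a lay 6.85 below Mir18 on one side and 8.03 below Mir20a on the other on that scale. Mir19b-1 lay 9.06 below Mir20a and 7.43 below Mir92-1. Over these 5 adjacent pairs the median absolute difference was 7.43, against 3.25 over the 93 other pairs of neighbouring miRNA genes on the same strand at most 1000 bases apart with a detected gene among them. The pairs share genes and libraries, so this is a description. Every pair of the cluster except Mir17 and Mir18, which differed by 2.52, contains a miR-19 gene. The median therefore restates the low miR-19 levels. Whether the other pairs share a transcript was not tested.

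**Figure D2:**
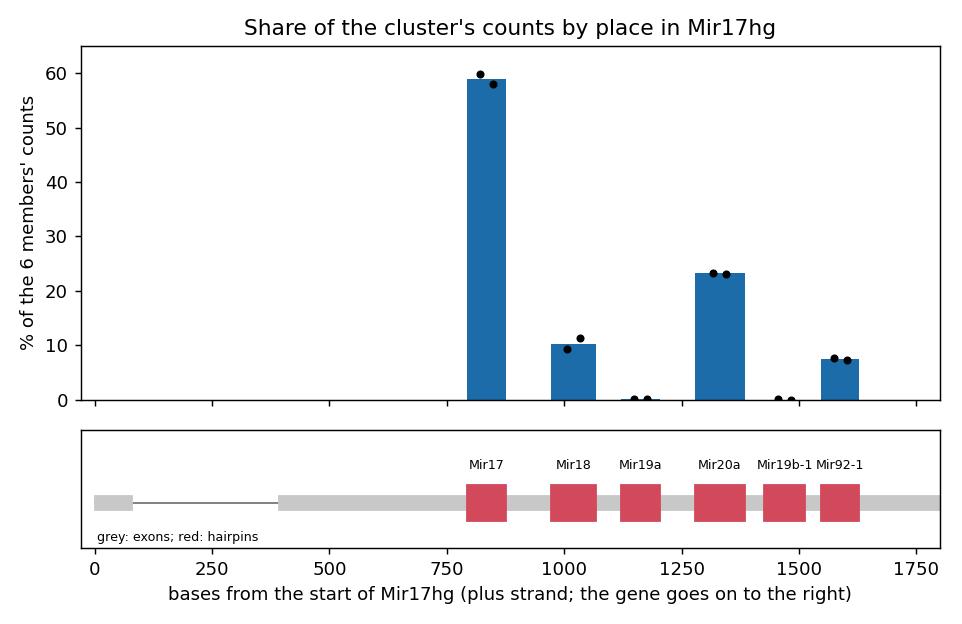
Share of the cluster's counts (%) held by each hairpin, drawn at its place in bases from the start of Mir17hg; bars are means of 2 libraries, points the single libraries, and the lower panel shows the annotated exons (grey) and hairpins (red). Mir17 and Mir20a hold 58.9% and 23.2%, and the bars of Mir19a and Mir19b-1 are barely visible beside their neighbours.

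The tables list reads that map to several places on a line apart from the genes, and these made up 30.6% of all reads in replicate 1 and 30.1% in replicate 2. The main strands of 2 members have an identical copy in a hairpin of the paralogous cluster on the X chromosome, miR-19b-3p in Mir19b-2 and miR-92a-3p in Mir92-2. The hairpins are printed to show how far the copies match; capitals mark the longest stretch that both share.
Mir19b-1 (chr14:115044305-115044391, plus strand): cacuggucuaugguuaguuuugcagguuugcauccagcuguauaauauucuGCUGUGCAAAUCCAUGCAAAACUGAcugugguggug
Mir19b-2 (chrX:52741983-52742066, minus strand): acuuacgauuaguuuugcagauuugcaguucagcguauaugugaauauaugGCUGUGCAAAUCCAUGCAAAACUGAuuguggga
Mir92-1 (chr14:115044427-115044506, plus strand): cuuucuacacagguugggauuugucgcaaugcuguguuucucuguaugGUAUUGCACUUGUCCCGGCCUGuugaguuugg
Mir92-2 (chrX:52741838-52741928, minus strand): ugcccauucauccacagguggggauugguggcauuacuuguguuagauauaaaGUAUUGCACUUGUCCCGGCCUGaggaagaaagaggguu
The shared stretch is 25 bases for the miR-19b pair and 22 for the miR-92a pair. In both pairs it ends with the last base of the annotated mature strand, so a read reaching past that base differs between the loci. A read within the stretch cannot be assigned to either locus, and the levels of Mir19b-1 and Mir92-1 are therefore uncertain.

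The main strands of the other 4 members (miR-17-5p, miR-18a-5p, miR-19a-3p and miR-20a-5p) were found whole, on either strand, in no other of 2202 annotated miRNA hairpins, nor in any annotated transcript apart from their own gene and the host Mir17hg. The longest stretch of miR-19a-3p in another hairpin was 12 bases, against 13 for miR-17-5p and miR-20a-5p and 17 for miR-18a-5p. The genome outside annotated transcripts was not searched, and how many mismatches the alignment allowed is not given in the sources used here. The part of multiply mapped reads in the level of any member was not tested.

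The cluster has paralogs that arose by duplication, Mir106b, Mir93 and Mir25 within the replication gene Mcm7 on chromosome 5, and the 6 genes from Mir106a to Mir363 on the X chromosome. The Mcm7-hosted genes were abundant and the X-linked genes were low at 26.3 CPM and below. Mir93 had 4552 and 4396 CPM (4474 ± 111), Mir106b had 3191 and 4082 (3636 ± 630) and Mir25 had 434 and 508 (471 ± 52.3). Together they summed to 8581 ± 572 CPM, and the chromosome 14 cluster exceeded them 2.88-fold in replicate 1 and 2.46-fold in replicate 2.

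On the X chromosome, Mir92-2 had 108 and 101 counts, Mir363 had 58 and 79, Mir106a had 45 and 42, Mir20b had 41 and 35, Mir18b had 26 in each library and Mir19b-2 had 10 and 5. The 6 genes summed to 70.8 ± 5.97 CPM, 354-fold below the chromosome 14 cluster in replicate 1 and 294-fold below in replicate 2. Each chromosome 14 gene paired with an X-linked counterpart exceeded it in both libraries, and Mir19a was paired with none. Mir17 lay 1262 ± 129 times above Mir106a, Mir20a 569 ± 10.2 times above Mir20b, Mir18 367 ± 5.17 times above Mir18b and Mir92-1 66.7 ± 6.88 times above Mir92-2. Mir19b-1 lay 4.70 times above Mir19b-2 in replicate 1 and 5.60 times in replicate 2, on few counts. The ratios for Mir92-1 and Mir19b-1, and the fold between the 2 clusters, are uncertain, since reads within the identical strands cannot be assigned to either locus. The mature strands are close in sequence: miR-106a-5p differs from miR-17-5p at 1 of 23 bases (U10A), and miR-18b-5p from miR-18a-5p at 2 of 23 (A18U and A20U).

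Grouped by seed over the whole genome, the chromosome 14 genes held most of the counts of each of their families. These shares are per gene, and the tables do not separate the strands of a hairpin. The seed AAAGUGC of miR-17 and miR-20a occurs in 7 genes, which summed to 26856 ± 617 CPM. Of these counts 71.6% in replicate 1 (exact 95% binomial interval 71.3 to 71.8) and 67.8% in replicate 2 (67.5 to 68.1) lay on the cluster. The remainder came almost wholly from Mir93 and Mir106b, whose main strands are printed to show the same seed (capitals).
miR-93-5p (Mir93): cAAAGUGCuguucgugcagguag
miR-106b-5p (Mir106b): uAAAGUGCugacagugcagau
Mir20a lay above Mir93 by 1.20-fold and 1.17-fold, and above Mir106b by 1.71-fold and 1.25-fold. Mir6383 of the same seed had 0 counts, which allows up to 0.693 and 0.781 CPM.

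For the seed AAGGUGC of miR-18 the cluster held 99.7% in both libraries, with Mir18b as the other gene. For the seed AUUGCAC of miR-92a, shared by 7 genes, it held 75.3% (74.5 to 76.2) in replicate 1 and 70.0% (69.0 to 70.9) in replicate 2. Mir25 was next, and Mir92-1 exceeded it 4.11-fold and 3.20-fold. Mir32 had 113 ± 17.0 CPM and Mir92b 14.3 ± 4.84. The share and the ratios to Mir25 are uncertain, because reads within the strand identical in Mir92-1 and Mir92-2 cannot be assigned. For the seed GUGCAAA of miR-19, carried by 3 genes, the cluster held 92.5% (86.6 to 96.3) and 95.6% (90.1 to 98.6). That family summed to only 30.2 ± 0.740 CPM in reads counted per gene, the lowest of the 4. Its sum, its share on the cluster and its split between Mir19b-1 and Mir19b-2 are uncertain because of the identical strand. Reads mapping to both loci may be missing from both genes.

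**Figure D3:**
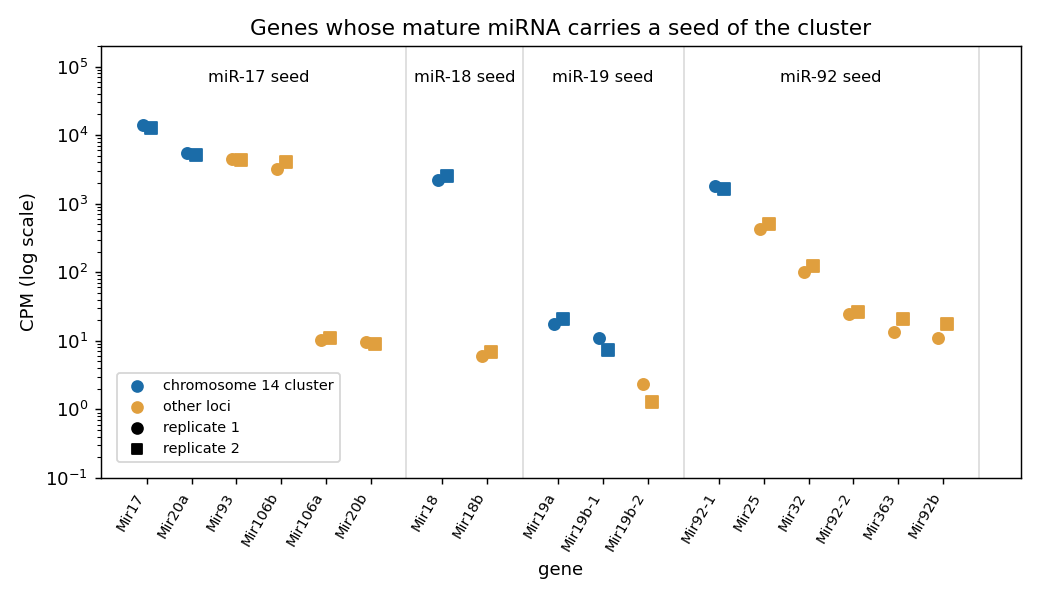
CPM (log scale) of every gene with a count whose mature strand carries a seed of the cluster, in replicate 1 (circles) and replicate 2 (squares), with chromosome 14 genes in blue and other loci in orange. Blue points top each of the 4 families, and the miR-19 family lies lowest, at 21.1 CPM and below.

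The 2 libraries gave similar levels for the cluster. The summed level in replicate 2 was 0.939 of that in replicate 1 (exact 95% counting interval 0.930 to 0.947). Mir17 (0.910), Mir20a (0.938), Mir92-1 (0.911) and Mir19b-1 (0.671, interval 0.405 to 1.09) were lower in replicate 2. Mir18 (1.15) and Mir19a (1.20, interval 0.867 to 1.66) were higher. So the members of a shared transcript did not all move the same way between these libraries. This rests on Mir18, since the intervals of Mir19a and Mir19b-1 include 1. The ratio of Mir18 became 1.06 with median-of-ratios factors, and its difference lies near the medians given below. With plain totals 0 of the 6 differed by more than 1.5-fold in either direction, beside 19.7% of the 396 genes whose counts summed to 10 or more. Mir19b-1 lay at that limit and passed it under other scalings, at 0.642 of its level in replicate 1 with TMM, 0.621 with median-of-ratios factors and 0.663 with the most abundant gene left out of the total. The median difference in either direction was 1.12-fold over the members and 1.19-fold over those 396 genes. It was 1.11-fold over the 78 genes averaging 1000 CPM or more, a level that 4 of the 6 members reach.

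**Figure D4:**
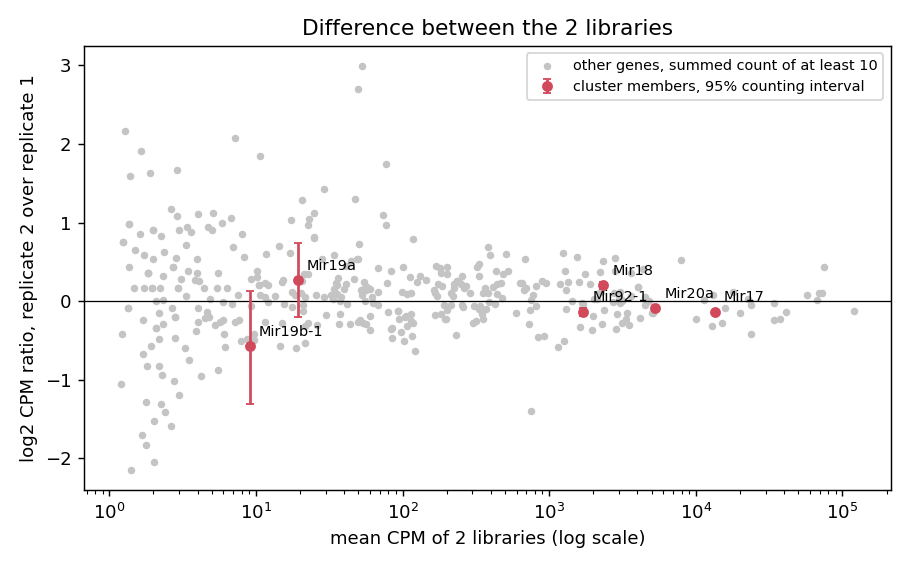
Log2 ratio of CPM in replicate 2 over replicate 1 against mean CPM (log scale) for the 396 genes whose counts summed to 10 or more (grey) and the cluster members (red, bars show 95% counting intervals). The 4 abundant members lie between -0.14 and 0.20, and Mir19b-1 lies at -0.57 with an interval that includes 0.

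The miR-15 family, listed here with miR-16 and miR-322, is known to restrain the cell cycle in heart muscle. That is the opposite of the role given to the cluster. Neither role was measured in these hearts, so the sums compare reads and not effects. The 7 measured genes of this family summed to 75621 ± 3501 CPM, 3.11 times the cluster's sum in replicate 1 and 3.54 times in replicate 2. Most of that was Mir322, with 66947 and 72001 CPM. Each of the other genes averaged at most 2104 CPM, so by these counts the family's sum exceeded the cluster's only through Mir322. Reads mapping to several places are left out of these counts. Their part in the levels of this list was not tested.

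The genes nearest to each member, by Euclidean distance of log2(CPM + 1) over the 2 libraries, place its level among other miRNAs. Mir17 was nearest to Mirlet7d (12845 ± 1963 CPM) and Mir22 (13095 ± 511). Mir20a was nearest to Mir483 (5116 ± 382), hosted by the growth factor gene Igf2, and Mir744 (5025 ± 369). Mir18 was nearest to Mir188 (2257 ± 135) and Mir361 (2191 ± 110), and Mir92-1 to Mir425 (1699 ± 31.6) and Mir484 (1675 ± 17.9). Among the low genes, Mir19a was nearest to Mir218-1 (20.6 ± 2.60) and Mir212 (18.5 ± 0.697). Mir19b-1 was nearest to Mir153 (8.73 ± 2.03) and Mir7083 (9.70 ± 2.30). With 2 libraries the measure reflects level and little else.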

How the data were processed

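The authors deposited whole-number read counts per gene, 1 table per library with 3 columns (both strands, then each strand), for genome build mm10 and annotation GENCODE M4, per the file headers and descriptions deposited beside them. Which aligner and counter were used is not given in the sources used here. The counts were not normalized, as judged from their values. Column 3 of the table, a single strand, was used throughout. The 4 lines naming no gene stayed out of totals, and their share of reads was 46.9% in replicate 1 and 47.2% in replicate 2.

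Symbols and coordinates came from GENCODE M21 on the same assembly, which named 1894 of 1973 identifiers, and mature sequences from RefSeq. CPM used the assigned reads as total, and log2 values a pseudocount of 1 CPM. Intervals are exact (Poisson or Clopper-Pearson, 95%) and cover counting error only, not the spread between libraries. No molecular identifiers tell PCR copies from molecules, so the intervals may be too narrow even for counting error. The fold between libraries and its interval were run on counts simulated with counting error only. That checks the calculation and cannot show how well the intervals cover the spread between real libraries. With 1 group no test was possible. Named genes were the members, their paralogs, the most abundant genes of each seed, the leading gene of the miR-15 list and the 2 genes nearest in level to each member. Mir208a, Mir208b, Mir499, Mir451a, Mir144, Mir205, Mir200c, Mir6383, Mir92b, Mir294, Mir302b, Mir302c, Mir302d and Mir350 were named after their values were seen. The members, the lists and the comparison of adjacent hairpins were chosen with earlier results of these data known. Scaling alternatives used edgeR 4.0.16 (TMM) and DESeq2 1.42.0 (median of ratios) in R 4.3.3, and other steps Python 3.11.15, pandas 2.3.3 and scipy 1.17.1. Other alternatives were the unstranded column, other totals, pseudocounts and count minimums, and each library left out.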

Additional observations from a re-analysis of the deposited data

How the results depend on the processing

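The order of the 6 members was the same in each library; no setting of scaling, total or pseudocount can change it within a library, and the members had no reads on the other strand, so these settings do not test it. The summed level of 22807 CPM became 21747 with the unstranded column, 25913 with the most abundant gene left out of the total and 12079 with all reads as the total. The log2 distance from Mir17 to Mir19b-1 became 9.47 with a pseudocount of 10 CPM. The ratio of the summed members between replicates became 0.897 with TMM, 0.868 with median-of-ratios factors and 0.927 without the most abundant gene, so replicate 2 stayed lower; these changes follow from the totals that each setting divides by. With 2 libraries, leaving one out returns the value of the other, as given in the report, and does not test stability. Depth limits the miR-19 genes: Mir19b-1 rests on 47 and 28 counts, and Mir19b-2 on 10 and 5.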

Other observations

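The letters AAGUGC, bases 3 to 8 of miR-17-5p and miR-20a-5p, also occur within the first 8 bases of mature miRNAs outside the miR-17 seed family. Searched on the mature strand only, they were found in 18 of 1738 mature sequences (1.04%). Apart from the miR-17 seed family, 11 genes carried them, and the 10 with an entry in the tables summed to 854 ± 25.9 CPM, against 26856 ± 617 for the miR-17 seed family. Mir302d of the early progenitor cluster had 336 ± 10.5 CPM, Mir302b 225 ± 24.2, Mir302c 53.2 ± 2.07 and Mir350 222 ± 7.00. The genes of the Mir290 cluster, known from embryonic stem cells, were at or below 15.3 ± 1.98 CPM (Mir294). These letters are a description of sequence and not a measured target.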
